A study of Homo sapiens with 12 samples.

Results

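The BEX (brain expressed, X-linked) genes encode 5 small, closely related human proteins, BEX1 to BEX5, that lie together on the long arm of chromosome X. Their members were taken by gene name from the FPKM table, 5 of 58735 genes, and the family was chosen by the FPKM of BEX2, which was among the genes with the largest rise after treatment in the columns labelled KGN. BEX proteins are adaptors without a known enzymatic activity. BEX1 and BEX3 (also called NADE) were described as partners of the p75 neurotrophin receptor, BEX2 as part of a DNA-binding complex with LMO2 and LDB1, and BEX4 as a microtubule-associated protein that interacts with SIRT2. The genes are known for expression in neurons and endocrine tissue and for silencing or gain in tumours, and the neighbouring TCEAL genes encode their nearest relatives.

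The series measured total RNA by bulk RNA sequencing in KGN and COV434, 2 human cell lines labelled wild type. The authors describe both as derived from ovarian granulosa cell tumours. Each line was left untreated or received 77-39, a selective inhibitor of the mitochondrial deacetylase SIRT3, for 72 h, with 3 libraries in each of the 4 groups. The untreated groups are called control in the titles and no vehicle is named, and the label for the dose reads 10 with a unit that is not a concentration. Nothing in the labels says whether the libraries of a group came from separate cultures, so the p-values below measure the spread between libraries, which may be technical. The libraries held 15547851 to 18280415 reads on genes, recovered from the FPKM (fragments per kilobase of transcript, scaled to library size) and the gene length. Mitochondrial genes took 7.30% to 8.81% of the reads under the label KGN and 7.71% to 13.5% under the label COV434.

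The line labels were set against marker genes before the BEX genes were read. FOXL2, the transcription factor that defines granulosa cells, had 1 read in the untreated and 1 read in the treated libraries labelled KGN, and 12.4 ± 0.786 FPKM (SD, n = 3) in the untreated libraries labelled COV434. SMARCA2, a chromatin remodelling ATPase, was at 0.00773 ± 0.00127 FPKM (n = 3) in untreated libraries labelled KGN and at 5.65 ± 0.717 FPKM (n = 3) in untreated libraries labelled COV434. SMARCA4, the alternative ATPase of the same complex, was at 2.58 ± 0.0210 and 9.22 ± 3.13 FPKM (SD, n = 3). In the field, COV434 has been reassigned to small cell carcinoma of the ovary, a tumour that lacks SMARCA4 and SMARCA2. The summed level of 10 granulosa markers ranged from 5.32 to 6.14 FPKM under the label KGN and from 29.4 to 34.3 FPKM under the label COV434. FSHR had no read in any library, and AMHR2 had none under the label KGN. GATA4, NR5A1, AMHR2, FST, FSHR and CYP19A1 had group means of at most 0.117 FPKM under both labels. The sums therefore rest on FOXL2, INHBB, AMH and INHA. AMH was at 4.55 ± 0.290 and 8.24 ± 1.02 FPKM (SD, n = 3) in the untreated libraries labelled KGN and COV434. The FOXL2, SMARCA2 and SMARCA4 levels go against the line labels, so the groups are called by their labels throughout. Whether the labels were exchanged was not tested. A neural marker list of 8 genes was read because BEX genes are known from neurons. It summed to 81.5 to 93.1 FPKM under the label KGN and to 0.467 to 0.892 FPKM under the label COV434. Most of the KGN sum was STMN2, at 75.9 ± 1.54 FPKM (SD, n = 3) untreated, which had no read under the label COV434. SYP was at 5.62 ± 0.449 FPKM (SD, n = 3) in the same untreated libraries. CHGA, MAP2, NEFL and NEFM had group means of at most 0.641 FPKM. TUBB3 was at 0.126 and 0.130 FPKM in the untreated libraries labelled KGN and COV434, and ELAVL4 had no read in any library. Markers of epithelial, blood and endothelial cells (4 genes) summed to at most 0.412 FPKM in any library.

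All 5 genes lie on chromosome X of GRCh38. BEX5 (ENSG00000184515) lies at chrX:102153708-102156057 on the minus strand. BEX1 (ENSG00000133169) follows at chrX:103062651-103064240, also on the minus strand. BEX4 (ENSG00000102409) spans chrX:103215092-103217246 on the plus strand. BEX2 (ENSG00000133134) spans chrX:103309346-103311046 on the minus strand and BEX3 (ENSG00000166681) chrX:103376340-103378077 on the plus strand, with 65.3 kb between them. The stretch from the first to the last BEX base is 1224 kb long.

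The start regions of these genes are shown first, because BEX2, read in every library, and BEX4, nearly without reads, begin with much the same DNA. RefSeq promoter windows (GRCh38.p14, 250 bases before to 50 after a start, 300 in all) were present for the 5 genes, with 3 starts for BEX3 and 2 each for BEX4 and BEX5. The letters CACGTG, a palindromic E-box, stand in the windows of BEX1, BEX2, BEX4 and the second start of BEX3, and in 7.26% of 35116 promoter windows of the genome. They begin 47 bases before the start of BEX1 and of the second BEX3 start, and 19 bases before the start of BEX2 and of the second BEX4 start. The same BEX4 letters begin 3 bases before the first BEX4 start. The BEX2 E-box lies inside the annotated gene span, and that of BEX4 runs across the first annotated base of the gene. BEX5 and the other BEX3 windows hold no such letters. The 30 bases around the E-box, with the E-box in capitals, are:
BEX2: tgacaacagccaCACGTGatcggccaacac
BEX4: tgacaacagcccCACGTGaccggccaacac
BEX1: acgcacggccctCACGTGaccgggagctgc
BEX3: acgcgcggccctCACGTGacccagagctgc
These are chrX:103310992-103311021 (minus strand) for BEX2, chrX:103215077-103215106 (plus) for BEX4, chrX:103064201-103064230 (minus) for BEX1 and chrX:103376479-103376508 (plus) for BEX3. BEX2 and BEX4 share 28 of the 30 bases and BEX1 and BEX3 share 27, while BEX2 and BEX3 share 12.

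The likeness of BEX2 and BEX4 goes on upstream. The bases before the first annotated transcript base, which hold no E-box, are shown for both so that the near copies can be compared. They are chrX:103311047-103311240 (minus strand, 194 bases) for BEX2 and chrX:103214858-103215091 (plus strand, 234 bases) for BEX4:
BEX2: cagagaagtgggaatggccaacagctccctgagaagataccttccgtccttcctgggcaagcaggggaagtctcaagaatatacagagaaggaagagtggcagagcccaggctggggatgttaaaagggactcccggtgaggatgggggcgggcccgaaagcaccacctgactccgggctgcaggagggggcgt
BEX4: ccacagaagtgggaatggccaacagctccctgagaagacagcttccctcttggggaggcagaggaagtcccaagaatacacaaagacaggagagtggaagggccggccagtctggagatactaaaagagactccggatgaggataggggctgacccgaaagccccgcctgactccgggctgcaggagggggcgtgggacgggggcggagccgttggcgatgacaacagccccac
In a global alignment with unaligned ends left out, 165 of 198 columns of these stretches were identical (83.3%). Over the aligned columns of the 300-base windows, BEX2 and the second BEX4 start were 84.5% identical, BEX1 and the second BEX3 start 75.2%, and BEX1 and BEX2 57.5%. The windows of BEX2 and of the second BEX4 start each hold 17 CpG dinucleotides, against a median of 14 over the promoter windows of the genome, and that of BEX1 holds 25. The core of the antioxidant response element, TGACNNNGC on either strand, stands in the windows of BEX1 and of the first and second BEX3 starts and in 13.3% of all windows. No BEX window holds the cyclic AMP response element TGACGTCA (1.85% of all windows) or the amino acid response element letters TGATGNAA (3.62%).

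Reads could be told apart between members. The longest transcript of BEX2 was 80.9% identical to that of BEX1, its closest relative by transcript, and the longest exact run that the longest BEX2 transcript had in common with a transcript of another gene was 75 bases, with BEX1. Of the 50-base windows of that BEX2 transcript, 2.92% occurred in a transcript of another gene, and none of its 100-base windows did. For BEX4 the share of 50-base windows was 0.313%, and for BEX3 and BEX5 it was 0%.

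Only 2 of the 5 members, BEX2 and BEX3, reached a mean of 1 FPKM in any group. BEX1 and BEX5 had no read in any of the 12 libraries, which allows levels of up to 0.176 to 0.232 FPKM for BEX1 and 0.143 to 0.189 FPKM for BEX5 in a library, taking 3 reads as the limit of a count of 0. BEX4 had 11 reads in all. They fell in 5 of the 6 libraries labelled KGN, with 1, 0 and 3 reads in the untreated and 2, 1 and 4 in the treated libraries, and none fell in the libraries labelled COV434. The limit for a BEX4 count of 0 was 0.115 to 0.151 FPKM. The 4 and 7 reads of the untreated and treated libraries labelled KGN are too few to compare the treatment groups, and BEX4 was under the filter in each comparison. In these bulk libraries, fewer cells with a transcript and less of it per cell cannot be told apart.

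**Figure D1:**
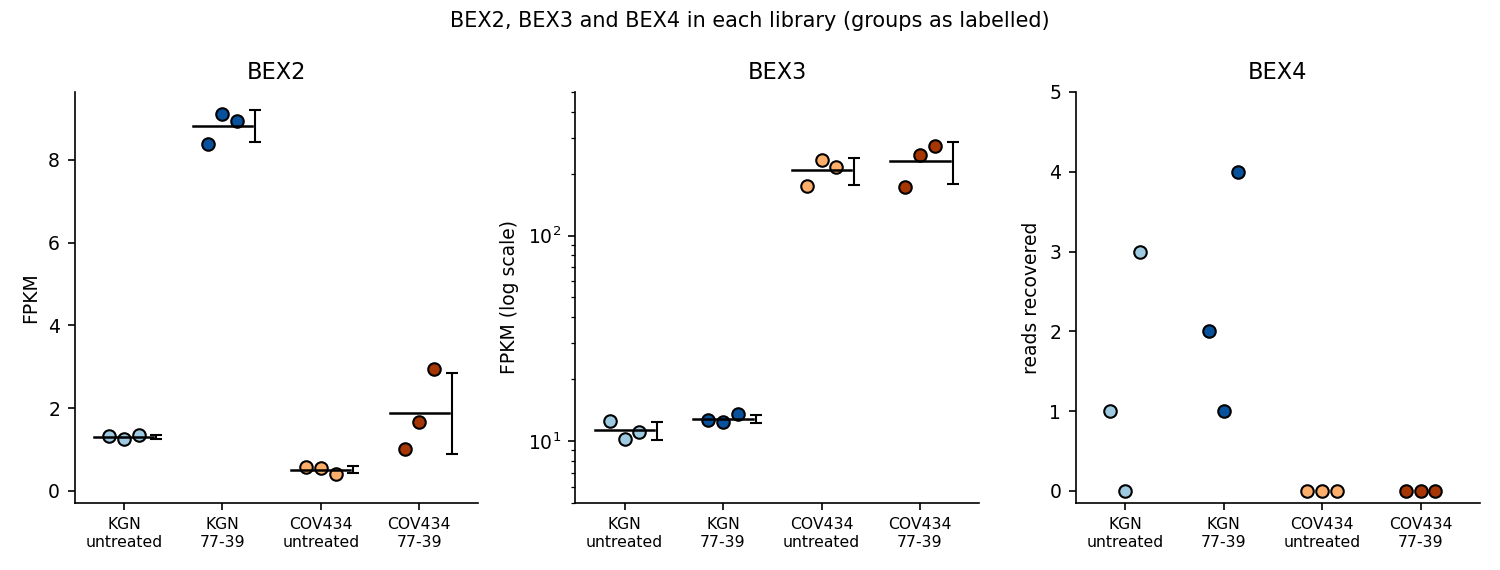
BEX2 and BEX3 in FPKM (BEX3 on a log axis) and BEX4 in recovered reads, 1 point per library; horizontal lines are group means and bars are SD (n = 3). BEX2 was at 8.39 to 9.12 FPKM in treated libraries labelled KGN and at most 2.95 in the other groups, while BEX3 separated the libraries by line label, at 10.2 to 13.5 against 173 to 274 FPKM.

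BEX2, the member that binds DNA as part of a complex in published work, was chosen for its rise after 77-39 under the label KGN. Its larger difference than BEX3 there therefore follows from the choice. Under the label COV434 BEX2 also had the larger difference but was not called. In the untreated libraries labelled KGN it was at 1.33, 1.24 and 1.34 FPKM, and in the treated ones at 8.39, 9.12 and 8.95 FPKM. All 3 treated libraries lay far above the untreated ones, and replicates differed little within each group (1.30 ± 0.0524 against 8.82 ± 0.383 FPKM, SD, n = 3 each). The level was 6.76-fold higher, a difference of 2.09 in log2(FPKM + 1) with a standard error of 0.05. The values rest on 85 reads in the untreated and 544 reads in the treated libraries. This contrast was used to choose the family, so it is given without a test. Of the 12671 genes tested there, 17.6% were higher with an adjusted p under 0.05 and 26.3% were higher without overlap between groups, and nothing is read from BEX2 against those shares.

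BEX3 did not follow BEX2 in the same libraries. It was at 12.5, 10.2 and 11.0 FPKM in the untreated and at 12.6, 12.4 and 13.5 FPKM in the treated libraries labelled KGN. The groups overlapped, and the means of 11.2 ± 1.19 and 12.8 ± 0.592 FPKM (SD, n = 3 each) differed by 0.18 in log2(FPKM + 1) with a standard error of 0.08. Per unit of BEX2, BEX3 stood at 8.61 ± 0.705 in the untreated and 1.46 ± 0.0846 in the treated libraries. BEX2 therefore made up 10.4% ± 0.725 of the summed BEX level before and 40.5% ± 1.52 after treatment (SD, n = 3), also a description of the contrast that chose the family.

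**Figure D2:**
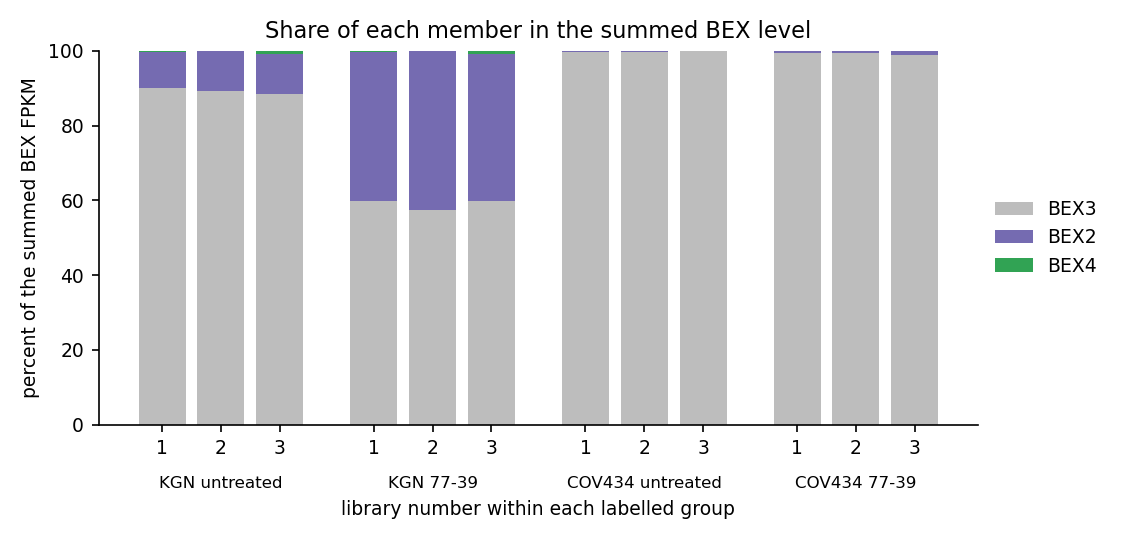
Share of each member in the summed FPKM of the BEX genes, in percent, with 1 bar per library. BEX2 took 39.5% to 42.3% in the treated libraries labelled KGN and 9.56% to 10.9% in the untreated ones, and BEX3 took at least 98.9% in every library labelled COV434.

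Whether BEX2 also moved in the other line was tested in the libraries labelled COV434, which had no part in the choice. BEX2 was at 0.564, 0.550 and 0.407 FPKM in the untreated and at 1.02, 1.66 and 2.95 FPKM in the treated libraries. The groups did not overlap, but the treated libraries were spread widely. The means were 0.507 ± 0.0873 and 1.88 ± 0.981 FPKM (SD, n = 3 each), a ratio of 3.70. On the log2(FPKM + 1) scale the difference was 0.88 (standard error 0.25, 95% confidence interval 0.31 to 1.45), and it did not pass the threshold after adjustment over 12060 genes (limma fitted across all genes, adjusted p = 0.318, unadjusted 0.00751). In this comparison 0.0415% of the genes tested were called, 8% had an unadjusted p under 0.05 and 6.23% were higher without overlap. None of the 2 members that passed the filter of a mean of 1 FPKM was called, and BEX2 had an unadjusted p under 0.05. BEX2 passed that filter through its treated libraries alone, so nothing is read from its p-values, interval or lack of overlap beyond the levels.

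The depth behind BEX2 was thin here. The untreated libraries labelled COV434 held 11, 11 and 8 BEX2 reads and the treated ones 18, 32 and 62. The exact 95% Poisson interval, which covers counting error only, ran from 0.606 to 1.62 FPKM in the first treated library and from 2.26 to 3.78 FPKM in the third, so these replicates differed by more than the counting error. Of the treated libraries, the first, with the lowest BEX2, had the highest mitochondrial share, at 13.5%, and the third, with the highest BEX2, the lowest, at 7.71%. Among the untreated libraries the first had both the highest share, at 9.63%, and the highest BEX2, at 0.564 FPKM. The part of that share in the BEX2 levels was not tested. Without the first treated library the difference was 1.11 (limma, adjusted p = 0.209). Without the third, BEX2 fell below the filter and was not tested. When all 12 libraries shared 1 estimate of the spread, the same difference of 0.88 was called (limma, adjusted p = 0.0231). That estimate also draws on the libraries labelled KGN by which BEX2 was chosen, so nothing is read from this call.

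BEX3 in the libraries labelled COV434 was at 173, 233 and 215 FPKM untreated and at 173, 248 and 274 FPKM treated. The groups overlapped, and the first library was the lowest in both. The means of 207 ± 30.8 and 232 ± 52.4 FPKM (SD, n = 3 each) differed by 0.14 in log2(FPKM + 1), with a 95% confidence interval of -0.37 to 0.65 (limma, adjusted p = 0.96). The first libraries also had the highest mitochondrial share of their groups, 9.63% untreated and 13.5% treated, and the part of that share in the BEX3 levels was not tested. With the replicate number as a block the BEX3 difference kept its size and its standard error was 0.11 (limma, adjusted p = 0.619), while the number of genes called rose from 5 to 87.

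**Figure D3:**
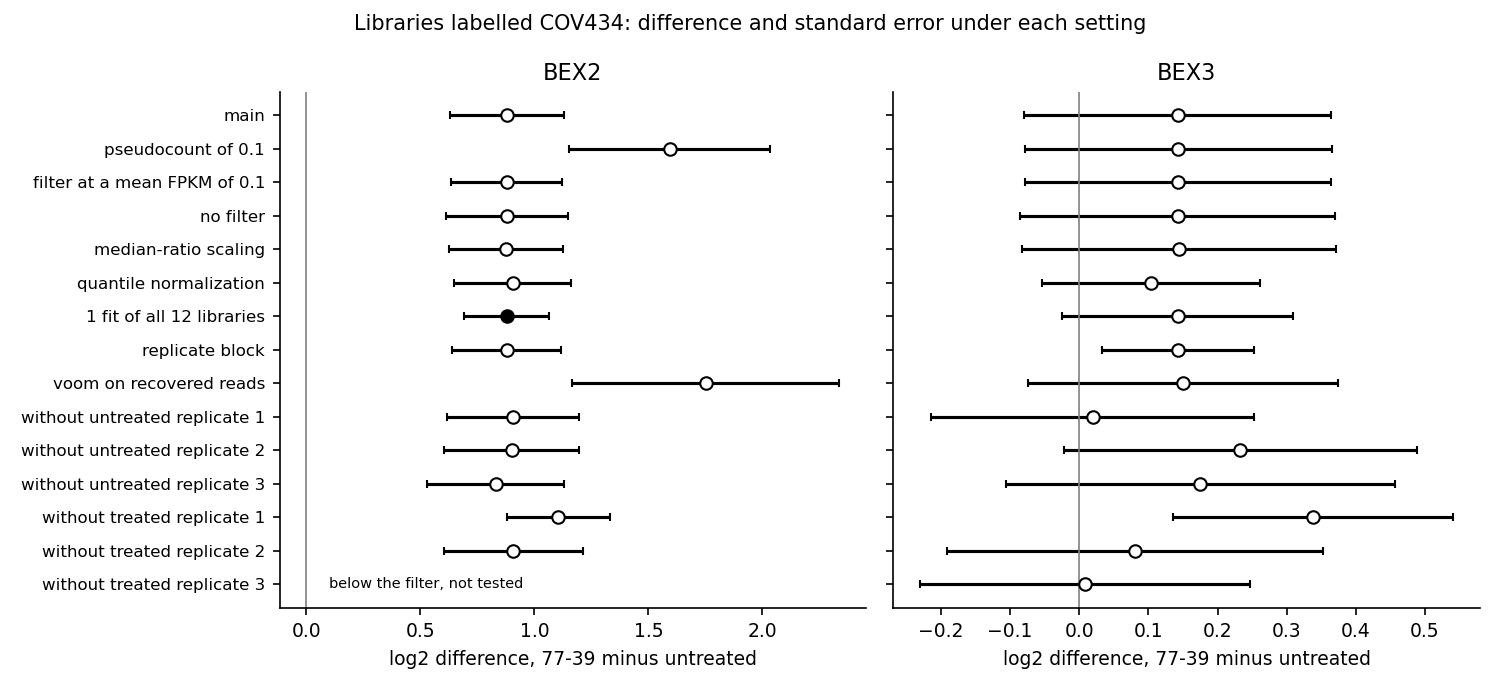
Log2 difference of BEX2 and BEX3 between treated and untreated libraries labelled COV434 in the main fit and under each alternative, with standard errors; filled points have an adjusted p under 0.05 and open points do not. BEX2 lay between 0.83 and 1.75 and was called in 1 of 13 alternatives, and BEX3 lay between 0.01 and 0.34 and was called in none of 14. Without the third treated library BEX2 was under the filter and has no point. The pseudocount of 0.1 and voom put the differences on other scales. The alternative that called BEX2 was the fit of all 12 libraries, which include those that chose BEX2.

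The level of the family before treatment was compared between the line labels. BEX3, known as a cell death executor linked to the p75 neurotrophin receptor, was 18.4-fold higher in the untreated libraries labelled COV434. There it ranked 158 of 24787 genes above 0 FPKM, and in the untreated libraries labelled KGN 3707 of 29830. The difference (KGN minus COV434) was -4.08 in log2(FPKM + 1), with a standard error of 0.14 and a 95% confidence interval of -4.42 to -3.74 (limma, adjusted p = 7.16e-07). BEX3 was the only member that passed the filter in this comparison, in which 69% of 13098 genes were called and 36.4% were lower in the libraries labelled KGN, so a call by itself sets BEX3 apart little. Line, label and anything else that differed between these libraries cannot be told apart.

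BEX2 stood the other way round. Its untreated level was 2.57-fold higher in the libraries labelled KGN than in those labelled COV434, without overlap between groups, as it was for 35.3% of the genes tested. The difference was 0.61 in log2(FPKM + 1). The comparison uses the same 3 untreated libraries labelled KGN as the contrast by which BEX2 was chosen, so the value is a description without a test, and the mean over both groups also lay under the filter. The BEX3 level was 420 ± 111 times that of BEX2 in the untreated and 137 ± 39.6 times in the treated libraries labelled COV434 (SD, n = 3).

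By group, BEX3 was ordered as treated COV434, untreated COV434, treated KGN and untreated KGN, with no separation between treated and untreated libraries of the same label. BEX2 was ordered as treated KGN, treated COV434, untreated KGN and untreated COV434. The treated COV434 libraries, at 1.02 to 2.95 FPKM, overlapped the untreated KGN libraries, at 1.24 to 1.34 FPKM, and the other neighbours in that order did not overlap.

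The surroundings of BEX2 and BEX3 were read through the genes within 1 Mb of the BEX stretch. Of 112 such genes, 51 protein coding, 35 had no read in any library. In the untreated comparison 23 passed the filter, 7 of which were higher and 12 lower in the libraries labelled KGN, with a median difference of -0.49 against -0.02 over all genes tested. Of all genes tested, 69% were called and 36.4% were lower. Several of the 23 were near or at 0 FPKM under a single label and passed the filter through the other alone. The 3 genes without a read in the untreated libraries labelled KGN (-3.22, -2.44 and -2.39) lay far below the median of the list. Putting them at a limit of 3 reads per library could therefore hardly move that median, which stayed the same.

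BEX2 lies between genes that were lower in the libraries labelled KGN. On one side, TCEAL8 was at 0.0160 ± 0.0277 FPKM in the untreated libraries labelled KGN (1 read in all) and at 26.8 ± 10.1 FPKM (SD, n = 3) in those labelled COV434, starting 58.1 kb from BEX2. On the other side, TCEAL9 was at 1.11 ± 0.253 and 44.1 ± 20.9 FPKM (SD, n = 3), starting 45.4 kb away, a difference of -4.30 (limma, adjusted p = 6.02e-05). BEX3, 65.3 kb away, came next in the same direction. NXF3, an mRNA export factor relative 235 kb away, had 0 reads in the libraries labelled KGN and was at 4.27 ± 0.683 FPKM in the untreated libraries labelled COV434, at least 92.1-fold higher with 3 reads per library as the limit. The untreated BEX2 level, 2.57-fold higher in the libraries labelled KGN, ran opposite to these neighbours.

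Farther along, the direction changed. GPRASP1, a sorting protein for G protein-coupled receptors, was higher by 2.63 and GPRASP2 by 2.28 in log2(FPKM + 1) in the libraries labelled KGN (limma, adjusted p = 3.82e-07 and 5.86e-06). ZMAT1 was higher by 1.63 and the noncoding LINC00630 by 1.24. GPRASP1, GPRASP2, ZMAT1 and LINC00630 were at 0.0441, 0.276, 0.0477 and 0.369 FPKM in the untreated libraries labelled COV434. They passed the filter through the libraries labelled KGN alone, so nothing is read from their calls beyond the levels. ARMCX3, a mitochondrial outer membrane protein, and ARMCX6 had 0 reads in all libraries labelled KGN and were at 8.41 ± 1.31 and 4.56 ± 1.48 FPKM (SD, n = 3) in the untreated libraries labelled COV434. Both passed the filter through the libraries labelled COV434 alone, as did TCEAL8 and NXF3.

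**Figure D4:**
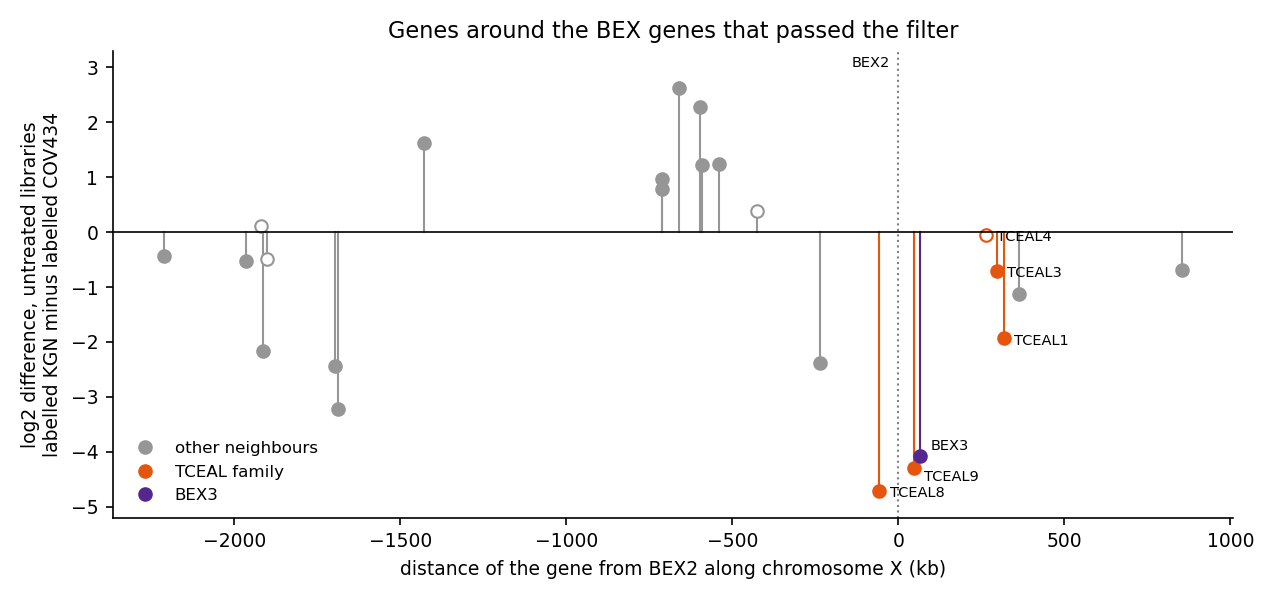
Log2 difference between untreated libraries labelled KGN and COV434 against distance from BEX2 in kb, for genes within 1 Mb of the BEX stretch that passed the filter; filled points have an adjusted p under 0.05. TCEAL8, TCEAL9 and BEX3, the nearest 3, lie between -4.70 and -4.08, and a run of genes from -1429 to -542 kb lies above 0. BEX2 itself, at the dotted line, was under the filter.

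After 77-39, 20 neighbours were tested in the libraries labelled KGN, and 4 were higher and 2 lower, with a median of 0.04 against 0.01 over all genes. With 34% of all genes tested called there, that count is near the background. The largest of these were CENPI, a centromere protein, with a fall by 0.54, and Z68871.1 with a rise of 0.44 (limma, adjusted p = 0.00274 and 0.0283). ZMAT1 rose by 0.33, TIMM8A, a mitochondrial import chaperone, by 0.27 and BHLHB9 by 0.19, and HNRNPH2, a splicing factor, fell by 0.28. The count of neighbours called was 2 without the third untreated library, or without the first or the second treated library, 3 with a filter of 0.1 FPKM, 2 with no filter and 1 in 1 fit of all 12 libraries. In the libraries labelled COV434, 16 neighbours were tested by limma and 0 were called, with 1 at an unadjusted p under 0.05 and a median of 0.13 against -0.02, and 1 fit of all 12 libraries called 1, which was lower.

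The TCEAL family, 9 genes that overlap the list of neighbours, holds the closest relatives of the BEX genes. TCEAL2, TCEAL5, TCEAL6 and TCEAL7 had at most 7 reads each over all libraries. In the untreated comparison 5 TCEAL genes were tested, and 4 were lower in the libraries labelled KGN, where 36.4% of all genes tested were lower, with a median of -1.94 against -0.02 over all genes. Besides TCEAL8 and TCEAL9, TCEAL1 was lower by 1.94, at 7.38 ± 0.533 against 31.2 ± 4.18 FPKM, and TCEAL3 by 0.71, at 3.89 ± 0.636 against 6.98 ± 0.809 FPKM (SD, n = 3). TCEAL4 was at 26.7 ± 7.99 and 27.0 ± 2.62 FPKM (limma, adjusted p = 0.84). After 77-39, 4 were tested in the libraries labelled KGN with a median of 0.10, and 5 in those labelled COV434 with a median of 0.17. By limma 0 were called in either, and 0 had an unadjusted p under 0.05, but 1 was called in the libraries labelled KGN without the first untreated library. TCEAL9, the nearest in the libraries labelled KGN, was at 1.11 ± 0.253 untreated and 1.51 ± 0.150 treated (SD, n = 3, adjusted p = 0.132).

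Genes tied to BEX proteins by binding or signalling (15 genes) were read next. Of the LMO2 complex described for BEX2, the transcripts of LMO2 and NHLH2 were nearly absent. LMO2 had at most 5 reads in any group and NHLH2 at most 2, and no protein was measured. LDB1, the bridging protein of that complex, fell in the libraries labelled KGN from 92.7 ± 5.45 to 69.0 ± 1.26 FPKM (SD, n = 3), by 0.42 in log2(FPKM + 1) (limma, adjusted p = 0.00216). NGFR, the p75 neurotrophin receptor that binds BEX1 and BEX3, was at 0.367 ± 0.148 and 0.973 ± 0.175 FPKM there, under the filter, and had 1 read in the 6 libraries labelled COV434. Of 10 partners tested in the libraries labelled KGN, 2 rose and 3 fell, where 34% of all genes tested were called, with a median of -0.11 against 0.01 over all genes. JUN, a stress-responsive transcription factor, rose by 0.66 and TUBA1A, an alpha-tubulin, by 0.50, while PLK1, a mitotic kinase, fell by 1.05 and YWHAE, a member of the family of phosphoserine-binding adaptors, by 0.28. Without the first untreated library 8 of the 10 were called, and in 1 fit of all 12 libraries 3 were. With a filter of 0.1 FPKM, which NGFR passed, 11 were tested, and 3 rose and 3 fell. In the libraries labelled COV434, 11 were tested by limma and 0 were called, with 2 at an unadjusted p under 0.05 and a median of 0.05 against -0.02, and 1 fit of all 12 libraries called 1 higher and 1 lower.

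Between the untreated lines, 10 of the same partners were tested, and 3 were higher and 4 lower in the libraries labelled KGN, with a median of -0.37 against -0.02 over all genes tested. With 69% of all genes called in this comparison, that count is near the background. TUBA1A was at 58.5 ± 4.55 against 1.22 ± 0.105 FPKM and LDB1 at 92.7 ± 5.45 against 18.0 ± 4.83 FPKM (SD, n = 3; limma, adjusted p = 6.41e-08 and 3.53e-05). SIRT2, the tubulin deacetylase linked to BEX4, was higher by 0.29, while TUBA1C was lower by 1.32, PLK1 by 0.95, YWHAE by 0.55 and RELA, a subunit of NF-kappaB, by 0.37. With quantile normalization the partners' median was 0.03, and 4 were higher and 2 lower.

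The genes whose pattern over the 12 libraries was nearest to BEX2 were found by the root mean square difference of log2(FPKM + 1), each gene centred on its own mean, among 13125 genes. FAM129A, a stress-induced regulator of translation, was nearest at 0.325, followed by TMIE, an inner ear membrane protein, at 0.376. SEPHS2, an enzyme of selenoprotein synthesis, was at 0.512, TUBB2A, a beta-tubulin, at 0.532 and ATF3, a stress-induced transcription factor, at 0.537, against a median of 1.10 over all genes. FAM129A was at 1.53 ± 0.257 and 10.5 ± 1.01 FPKM in the untreated and treated libraries labelled KGN, and at 0.963 ± 0.499 and 2.32 ± 0.419 FPKM in those labelled COV434 (SD, n = 3). TMIE was at 0.694 ± 0.230 and 4.62 ± 0.337 FPKM in the libraries labelled KGN and at 0.237 ± 0.0665 and 0.230 ± 0.201 FPKM in those labelled COV434, where it did not share the higher treated level of BEX2. ATF3 was at 8.40 ± 0.226 and 26.5 ± 0.447 FPKM in the libraries labelled KGN and at 10.1 ± 0.603 and 8.47 ± 1.60 FPKM in those labelled COV434. With a pseudocount of 0.1 only FAM129A and TMIE remained among the nearest 5, with HMOX1, NIPSNAP3B and SMG1P7 as the others. These likenesses are led by the contrast that chose BEX2 and are a description.

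**Figure D5:**
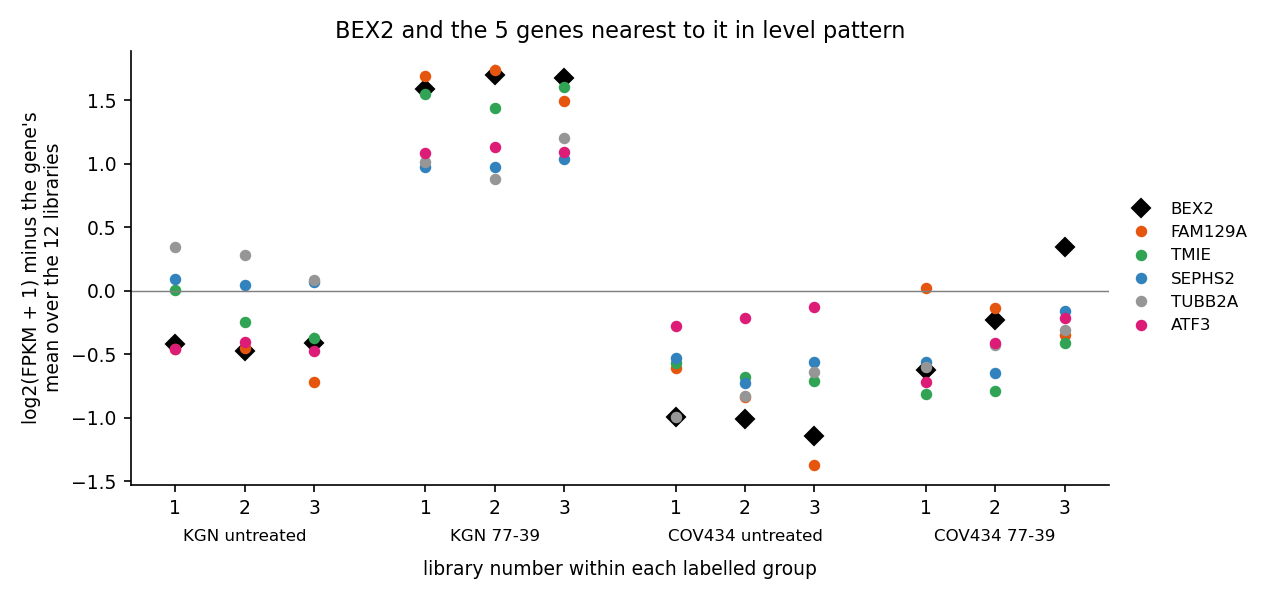
Level of BEX2 (diamonds) and of the 5 genes nearest to it, as log2(FPKM + 1) minus the gene's mean over the 12 libraries, by library. All 6 genes are highest in the treated libraries labelled KGN, and BEX2 is spread most widely in the treated libraries labelled COV434.

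The gene nearest to BEX3 was CLDN7, a tight junction protein, at 0.138 against a median of 2.05. CLDN7 was at 0.0136 ± 0.0235 and 0.0390 ± 0.0286 FPKM in the untreated and treated libraries labelled KGN and at 17.6 ± 3.26 and 17.1 ± 3.72 FPKM in those labelled COV434 (SD, n = 3), so both genes divided the libraries by line label.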

How the data were processed

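RNA of 12 libraries was sequenced and processed by a service provider on an Illumina instrument. The authors deposited FPKM per gene. Per the submitters' notes reads were aligned with HISAT2 2.0.5; the notes name mouse builds (mm10, mm8), but all 58735 gene coordinates match the human GENCODE release 29 (GRCh38), and the extraction note speaks of retinas. The members and gene lists were chosen with earlier results of these data known. Reads per gene were recovered from FPKM and gene length, whole within 0.05 for at least 99.9% of genes above 0 in each library. FPKM are not counts, so limma 3.58.1 (R 4.3.3; lmFit, eBayes with trend, two-sided, Benjamini-Hochberg over all genes tested) was run on log2(FPKM + 1), for genes whose mean over the libraries fitted reached 1 FPKM, and fold changes of low genes are understated on that scale. Groups came from the sample titles. The script was tested on simulated data. Same-numbered libraries labelled COV434 deviated together (correlations 0.400, 0.474 and 0.166), a pairing seen in the data and not stated in the labels. Differently numbered ones had correlations of -0.469 to 0.154, so the third pair stood out little. Same-numbered libraries labelled KGN did not deviate together (-0.016 to -0.019). Named genes were the members, up to 4 called genes per direction and list by size of difference, TCEAL genes with at least 1 FPKM, and the genes nearest to BEX2 and BEX3. Promoter windows came from RefSeq and were aligned with Biopython 1.88, and the motifs were chosen after the sequences were seen. Each library was left out in turn, and other pseudocounts, filters, scalings and fits were tried.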

Additional observations from a re-analysis of the deposited data

Results flagged for a closer look

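Of 49 named genes, GLA, a lysosomal galactosidase gene near the BEX stretch, was the only one whose treated libraries all lay above the untreated ones under one line label and all below them under the other. The difference in log2(FPKM + 1) was 0.15 under the label KGN and -0.51 under the label COV434, called in neither (limma, adjusted p = 0.0817 and 0.432). The difference between the lines was not tested. The share of all genes with this pattern was not counted, so nothing further is read from it. No BEX gene moved in opposite directions in this way.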

How the results depend on the processing

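BEX3 kept its lower untreated level in the libraries labelled KGN under all 14 alternatives (-4.21 to -3.71, limma adjusted p 8.25e-10 to 3.95e-05), and its treatment difference in the libraries labelled COV434 stayed uncalled (0.01 to 0.34). BEX2 in the libraries labelled COV434 kept its direction in the 13 alternatives that tested it (0.83 to 1.75, limma adjusted p 0.0231 to 0.902). Without the third treated library, the highest in BEX2, it was under the filter and has no value in this range. The values of 1.59 (pseudocount of 0.1) and 1.75 (voom) are on other scales than log2(FPKM + 1). In 1 fit of all 12 libraries BEX2 was called, so that 1 BEX gene was called. That fit takes part of its spread from the libraries that chose BEX2, so nothing is read from this call. In the untreated comparison 2 members were called with a filter of 0.1 FPKM, with no filter and without the third untreated library labelled COV434, and 1 to 2 when a library was left out, since BEX2 then entered the test; as the untreated libraries labelled KGN took part in its choice, nothing is read from that call. The count of genes called in the libraries labelled COV434 was 5 and moved to 3 with a pseudocount of 0.1, 3 with a filter of 0.1 FPKM, 1 with no filter, 488 in 1 fit of all libraries, 87 with the replicate block, 25 with voom on recovered reads, and 1 to 7 when a library was left out; the cause was not tested. In the libraries labelled KGN it was 4307, 1237 in 1 fit of all libraries and 2751 to 4128 when a library was left out. The BEX2 difference there was 2.07 to 2.74 over 14 alternatives. The replicate block changed no BEX call. In the untreated and KGN comparisons same-numbered libraries did not deviate together (-0.137 to -0.083 and -0.019 to -0.016), and the block gave 8560 genes in the untreated one. At 8 to 62 reads a library, depth limits BEX2 in the libraries labelled COV434.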
